A study of Mus musculus with 2 samples.

Results

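Lrrc4c, Cntnap2 and Cntnap5a, 3 genes for adhesion proteins of neurons, were among the genes with the most peaks in an Isl1 peak list from cardiogenic regions of mouse embryos. Lrrc4c was given 85 peaks, Cntnap5a 60 and Cntnap2 55. Their peaks were taken as the rows of the deposited list that carried one of these 3 gene symbols, which came to 200 of 48295 peaks (0.414%) and 3 of 12972 genes. Of all genes 4, or 0.0308%, had at least as many peaks as Cntnap2, namely the 3 and Pcdh9, a protocadherin with 72. The 3 genes were chosen by their number of peaks in this list, so these counts are a description and nothing is supported with them.

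The study asked which genes Isl1 binds during formation of the heart. Cardiogenic mesoderm and heart regions of about 60 to 80 C57BL/6 embryos at E8.25-E9 were pooled, crosslinked with 1% formaldehyde for 15 min and sheared to 200 to 500 bp, and chromatin was precipitated with an antibody to Isl1 (clone 39.4D5, 2 to 5 µg). One ChIP sample with a peak list was used, no treatment or mutation is named in its labels, and the matching input was not analysed here. Only 1 list was used, so no replicate check could be made here. No peak carries a height or p-value, and the depth is unknown, so every interval below covers counting error only.

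Isl1 is a LIM-homeodomain transcription factor of cardiac progenitors of the second heart field, and it is also well known from motor and sensory neurons. In ChIP-Seq, DNA fragments that come down with a factor are sequenced, and a peak is a place where they pile up. The list assigns each peak to the gene with the closest transcription start site (TSS), whatever the distance. A gene that stands alone in a long stretch without other genes, often called a gene desert, therefore collects every peak of that stretch. Lrrc4c encodes netrin-G ligand 1, a leucine-rich repeat protein of the postsynaptic membrane that binds netrin-G1 on axons. Cntnap2 encodes Caspr2, a neurexin-like protein that holds potassium channels in place beside the nodes of myelinated axons. Cntnap5a is a less studied neurexin-like relative of Cntnap2. All 3 are long genes with large introns.

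What most of the 200 peaks shared was a stretch of simple sequence at the centre. Windows of 201 bp around the midpoints of 6 peaks are printed to show it, near to and far from a TSS and with and without the run. They are read on the plus strand of NCBIM37, which is mm9, the build of the list, and all 3 genes are transcribed from this strand. Capitals mark the longest uninterrupted run of purines or of pyrimidines, and windows in which no run reaches 25 bases are in lower case throughout. The first 2 windows belong to the peaks of Cntnap2 and Cntnap5a that lay closest to a TSS.

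Cntnap2, closest to a TSS, chr6:45009384-45009584: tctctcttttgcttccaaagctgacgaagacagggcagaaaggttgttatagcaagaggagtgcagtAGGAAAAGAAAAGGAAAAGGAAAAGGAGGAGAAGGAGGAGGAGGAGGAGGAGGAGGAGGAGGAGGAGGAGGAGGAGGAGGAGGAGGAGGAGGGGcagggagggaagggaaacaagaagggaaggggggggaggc
Cntnap5a, closest to a TSS, chr1:117580961-117581161: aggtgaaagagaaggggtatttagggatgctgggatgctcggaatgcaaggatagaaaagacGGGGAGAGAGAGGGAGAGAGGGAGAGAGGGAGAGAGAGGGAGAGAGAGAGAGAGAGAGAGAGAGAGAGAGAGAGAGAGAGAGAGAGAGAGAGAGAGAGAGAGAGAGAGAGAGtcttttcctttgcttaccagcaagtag

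The Cntnap2 window lay 576 bp upstream of the TSS used in the list with 94 purines, and the Cntnap5a window 653 bp upstream of its TSS in the list, at 117581714, with 112 purines. The next 2 windows were the farthest from a TSS in their genes, both between genes, one 2029 kb downstream of a TSS inside Lrrc4c and one 1832 kb upstream of Cntnap5a. The same kind of sequence was found there, with 81 pyrimidines in the Lrrc4c window and 118 pyrimidines in the Cntnap5a peak, of which 80 fall inside the window.

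Lrrc4c, farthest from a TSS, chr2:99336971-99337171: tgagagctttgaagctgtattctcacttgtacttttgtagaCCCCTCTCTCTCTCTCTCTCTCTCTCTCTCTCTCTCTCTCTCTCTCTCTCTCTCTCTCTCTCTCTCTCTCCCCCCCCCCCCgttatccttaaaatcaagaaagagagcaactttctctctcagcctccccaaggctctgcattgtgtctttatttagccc
Cntnap5a, farthest from a TSS, chr1:115749714-115749914: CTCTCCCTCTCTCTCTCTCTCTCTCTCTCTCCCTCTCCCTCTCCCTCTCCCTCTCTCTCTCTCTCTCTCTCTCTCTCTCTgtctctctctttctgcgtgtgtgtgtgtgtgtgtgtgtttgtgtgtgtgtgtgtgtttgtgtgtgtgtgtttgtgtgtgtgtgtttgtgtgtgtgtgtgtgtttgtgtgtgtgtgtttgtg

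The last 2 windows come from the few peaks without a run. The Cntnap2 window is in intron 8 and is the farthest of that gene from a TSS, with no more than 13 purines in a row. The Cntnap5a window is in intron 11, 548 kb downstream of the TSS, with no more than 17 purines in a row.

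Cntnap2, without a run, chr6:46108552-46108752: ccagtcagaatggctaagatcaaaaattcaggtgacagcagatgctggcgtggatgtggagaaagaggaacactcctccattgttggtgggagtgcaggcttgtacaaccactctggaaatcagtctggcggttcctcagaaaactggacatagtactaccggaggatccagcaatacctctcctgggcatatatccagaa
Cntnap5a, without a run, chr1:118129389-118129589: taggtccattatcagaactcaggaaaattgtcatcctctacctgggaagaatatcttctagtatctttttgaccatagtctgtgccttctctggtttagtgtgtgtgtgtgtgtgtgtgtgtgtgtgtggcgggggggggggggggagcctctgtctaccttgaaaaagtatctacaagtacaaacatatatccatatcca

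Lrrc4c had more peaks than any other gene of the list. It lies on chromosome 2 (96158326 to 97471823, plus strand, ENSMUSG00000050587) and is 1313.5 kb long. Its 85 peaks began at 95261506 and ended at 99337219, which is 4.08 Mb from the first to the last. Upstream of the gene lay 14 peaks, inside it 36 and downstream of it 35, so 57.6% were outside the gene body. The list used 2 TSSs for it, one at the start of the gene with 31 peaks and one at 97307814, inside the gene, with 54 peaks.

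Peaks of Lrrc4c were found in each of its 6 introns and in none of its exons. In the longest transcripts of the 3 genes no exon is longer than 2.955 kb, so few peaks could touch one. From the first to the sixth intron there were 6, 8, 5, 8, 8 and 1 peaks. Intron 5 was the most densely covered of those with 2 or more peaks, with 8 peaks in 177 kb, or 45.3 peaks per Mb. The densest 100 kb of the whole gene held 7 peaks, downstream of the internal TSS. The densest window of this size in the list held 37 peaks.

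Cntnap2, on chromosome 6 (45010060 to 47251368, plus strand, ENSMUSG00000039419), is the longest of the 3 with 2241 kb, and most of its peaks were inside it. Of 55 peaks, 15 lay upstream, 36 in the gene body and 4 downstream, with 34.5% outside the body. They ran from 44319917 to 47279364 (2.96 Mb). Of its 23 introns, 16 held a peak. Intron 1 had 7 peaks in 594 kb (11.8 per Mb), whereas the much shorter intron 8 had 8 peaks in 155 kb (51.7 per Mb). Among the peaks of intron 8 were all 3 Cntnap2 peaks without a run at the centre. A single peak touched an exon, number 8 of 24. The list used a TSS at the start of the gene for 35 peaks and a TSS at 47194395, near its end, for 20.

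Cntnap5a, on chromosome 1 (117581333 to 118478603, plus strand, ENSMUSG00000070695), showed the opposite spread. It is the shortest of the 3 with 897 kb and had 71.7% of its peaks outside the gene body. Upstream lay 34 peaks, inside 17 and downstream 9, between 115749562 and 118875307 (3.13 Mb). Intron 1 held 6 peaks in 216 kb, introns 3 and 13 held 3 each, and 8 of 23 introns held any. A single peak touched an exon, number 14 of 24.

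**Figure D1:**
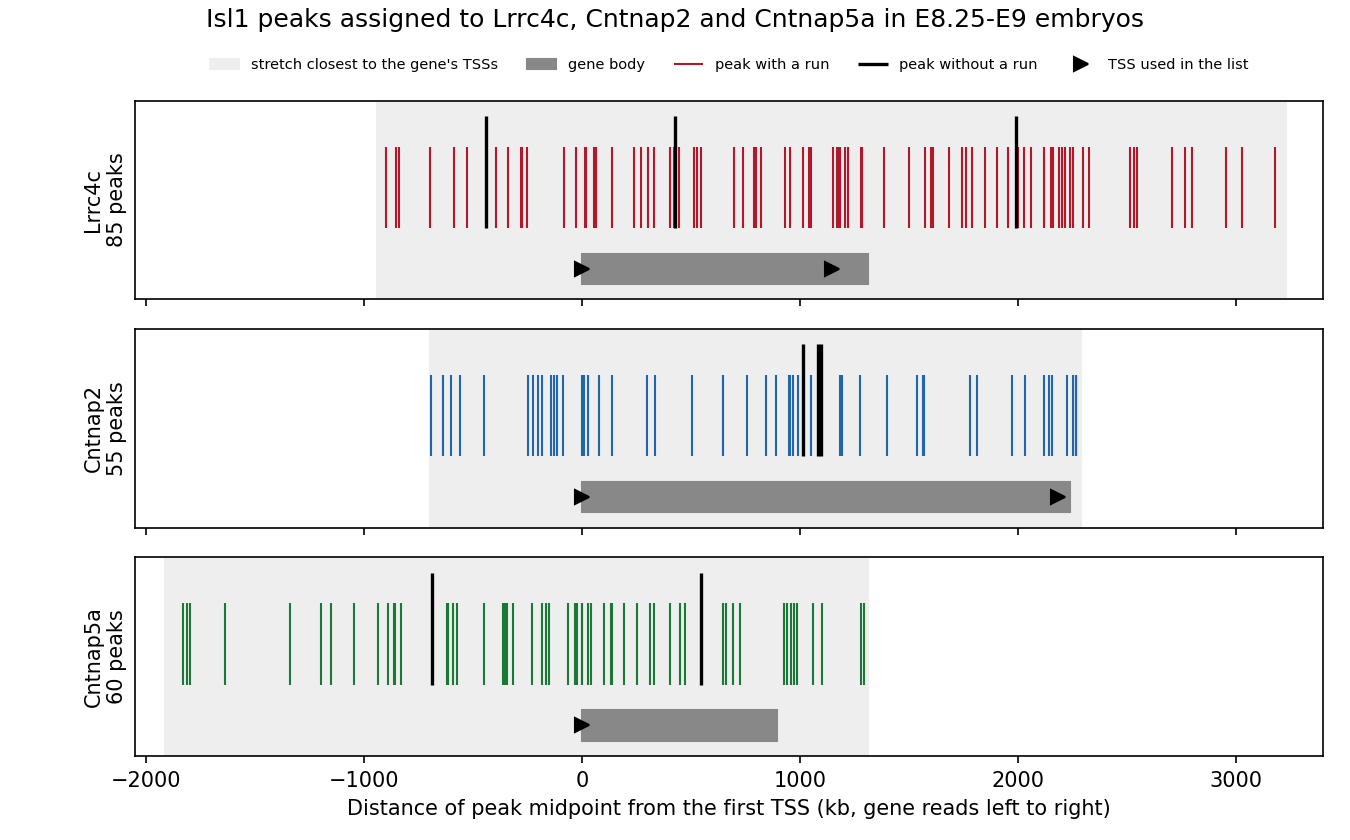
Positions of the 200 Isl1 peaks assigned to the 3 genes, one panel for each gene, against the distance of the peak midpoint from the first TSS in kb. Coloured lines are peaks with a purine or pyrimidine run and taller black lines the 8 peaks without one, dark bars are gene bodies, arrowheads the TSSs of the list and light bands the stretch closest to the gene; the 85, 55 and 60 peaks spread over nearly the whole of each band.

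Few peaks of these genes were near a start site. Within 1 kb of a TSS lay 0 peaks of Lrrc4c, 1 of Cntnap2 and 1 of Cntnap5a. Within 10 kb there were 5 of the 200 peaks (2.5%), against 15.9% of all peaks in the list. Among these were the peaks of Cntnap2 and Cntnap5a shown above, a Cntnap2 peak 8.511 kb downstream of the TSS in intron 1 and a second Cntnap5a peak at -1.54 kb, just upstream of the gene. The median distance to the TSS was 447 kb for Lrrc4c, 450 kb for Cntnap2 and 601 kb for Cntnap5a, against 58.8 kb over the list. The 200 peaks were drawn from 10.4 Mb, of which little can lie within 10 kb of a TSS. These comparisons do not allow for that length, so they do not show whether peaks avoided the start sites.

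Beyond 500 kb lay 39 peaks of Lrrc4c (45.9%), 27 of Cntnap2 (49.1%) and 33 of Cntnap5a (55.0%). In the list as a whole 7.69% of the peaks were so far away. The 99 distant peaks of the 3 genes made up 2.66% of the 3715 in the list. Beyond 1 Mb lay 18 peaks of Lrrc4c, 12 of Cntnap5a and 6 of Cntnap2. The distances come from the same rows of the list for which the genes were chosen, and they were not tested. They also do not allow for how much of each gene's stretch lies that far from a TSS.

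Each stretch that draws peaks to a gene ends halfway to the TSS of the neighbouring gene. For Lrrc4c the neighbours in the list were Api5 and Rag2, and the stretch between the halfway points was 4.17 Mb long (95218335 to 99386359). For Cntnap5a they were Dsel and Tsn with 3.22 Mb (115671605 to 118894711), and the stretch of Cntnap2, with Cul1 downstream, was 2.99 Mb long (44313169 to 47299359). No base in the 3 stretches was unassembled, and no peak assigned to another gene lay between peaks of a member. Together the 200 peaks were drawn from 10.4 Mb.

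Within the stretch, peaks were denser in the body of Lrrc4c than beside it. The density was 14.9 peaks per Mb in the 940 kb upstream, 27.4 in the gene body and 18.3 in the 1915 kb downstream. Cntnap5a was close to even, with 17.8 in the 1910 kb upstream, 18.9 in the body and 21.6 in the 416 kb downstream. Cntnap2 had 21.5 in the 697 kb upstream and 16.1 in the body. Downstream of Cntnap2 only 48.0 kb belonged to the gene, so the 83.3 peaks per Mb there rest on 4 peaks, of which 3 were neighbours 2.527 and 1.142 kb apart. The whole list had 18.2 peaks per Mb of genome, and chromosomes 1, 2 and 6 had 19.0, 18.6 and 19.0.

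Counted in steps of 500 kb from the first TSS, the peaks of Lrrc4c numbered 6, 8, 14, 10, 13, 12, 13, 7 and 2 from -1000 to 3500 kb. Those of Cntnap2 numbered 5, 10, 6, 10, 9, 6 and 9 from -1000 to 2500 kb. Those of Cntnap5a numbered 4, 4, 11, 15, 12, 10 and 4 from -2000 to 1500 kb. The first and the last step of each gene were only partly inside the stretch. In the full steps Cntnap2 had 6 to 10 peaks throughout, Lrrc4c had the fewest just upstream and in its most distant downstream step, and Cntnap5a had 4 peaks between -1500 and -1000 kb against 15 just upstream of the gene.

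**Figure D2:**
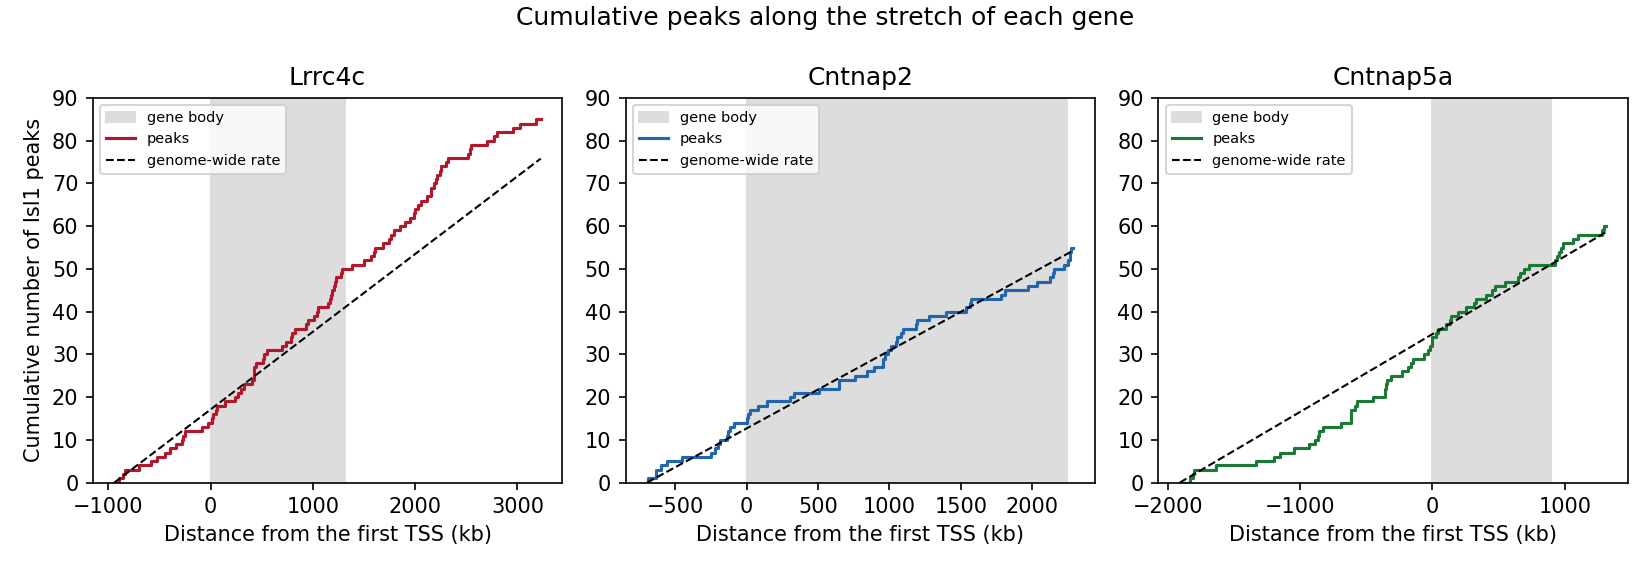
Cumulative number of Isl1 peaks along the stretch of each gene, against the distance from the first TSS in kb; grey marks the gene body and the dashed line the number reached at the rate of the whole list. Cntnap2 stays close to the line, Lrrc4c climbs above it through the gene body and ends at 85 against 75.8, and Cntnap5a falls below it far upstream and returns to it at the gene.

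The length of the stretch gave nearly the number of peaks in all 3 genes. With the rate of the whole list, the stretch of Lrrc4c would hold 75.8 peaks and 85 were listed, a ratio of 1.12 (95% exact Poisson interval 0.895 to 1.39). For Cntnap5a 58.6 were expected and 60 listed, a ratio of 1.02 (0.781 to 1.32). For Cntnap2 54.3 were expected and 55 listed, a ratio of 1.01 (0.763 to 1.32). All 3 intervals include 1. They do not allow for the choice of these genes by their high counts, and this way of bounding the stretch was chosen after seeing the data. The rate of 18.2 peaks per Mb also counts unassembled bases as length. Without them the rate was 18.9 per Mb, with which the ratios would be slightly lower.

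The same was computed from an annotation that does not depend on the list. Here the territory of a gene was every base closer to one of its protein-coding TSSs in GENCODE than to a TSS of another protein-coding gene, and peaks were counted by position. The territory of Lrrc4c had 2.69 Mb and 57 peaks against 48.9 expected, a ratio of 1.17 (0.883 to 1.51). That of Cntnap2 had 1.89 Mb and 34 peaks against 34.4, a ratio of 0.987 (0.684 to 1.38). That of Cntnap5a had 3.22 Mb and 60 peaks against 58.6, a ratio of 1.02 (0.781 to 1.32). Thus 2 of the 3 genes exceeded the expected number, and of the 323 territories of at least 1 Mb 41.8% did. The rate behind these numbers counts unassembled bases as length, and the territories of the 3 genes held none. With assembled bases alone the ratios were 1.12 for Lrrc4c, 0.951 for Cntnap2 and 0.986 for Cntnap5a. Only Lrrc4c then exceeded the expected number.

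By length alone these territories were among the largest, with Cntnap5a at place 20, Lrrc4c at 38 and Cntnap2 at 82 of 22210. By ratio they stood at place 85 (Lrrc4c), 126 (Cntnap5a) and 144 (Cntnap2) of the 323 large ones. The large territories had a median ratio of 0.946, with quartiles of 0.707 and 1.17 and a range of 0 to 2.30, so the ratio of each of the 3 genes lay between the quartiles. At the rate of these large territories in place of the whole list, the ratios were 1.41 for Lrrc4c, 1.24 for Cntnap5a and 1.19 for Cntnap2. Unassembled bases, which can hold no peak, counted as length in these large territories. They made up 92.2 to 93.7% of Scaf8, Sepp1, Vmn1r238 and Cnksr3, but none of the territories of the 3 genes. The places among the 323 and these last ratios are therefore raised by an amount that was not tested. Over all territories, peaks and length had a Pearson correlation of 0.778 and a Spearman correlation of 0.731, given as a description over 22210 genes that share one library.

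**Figure D3:**
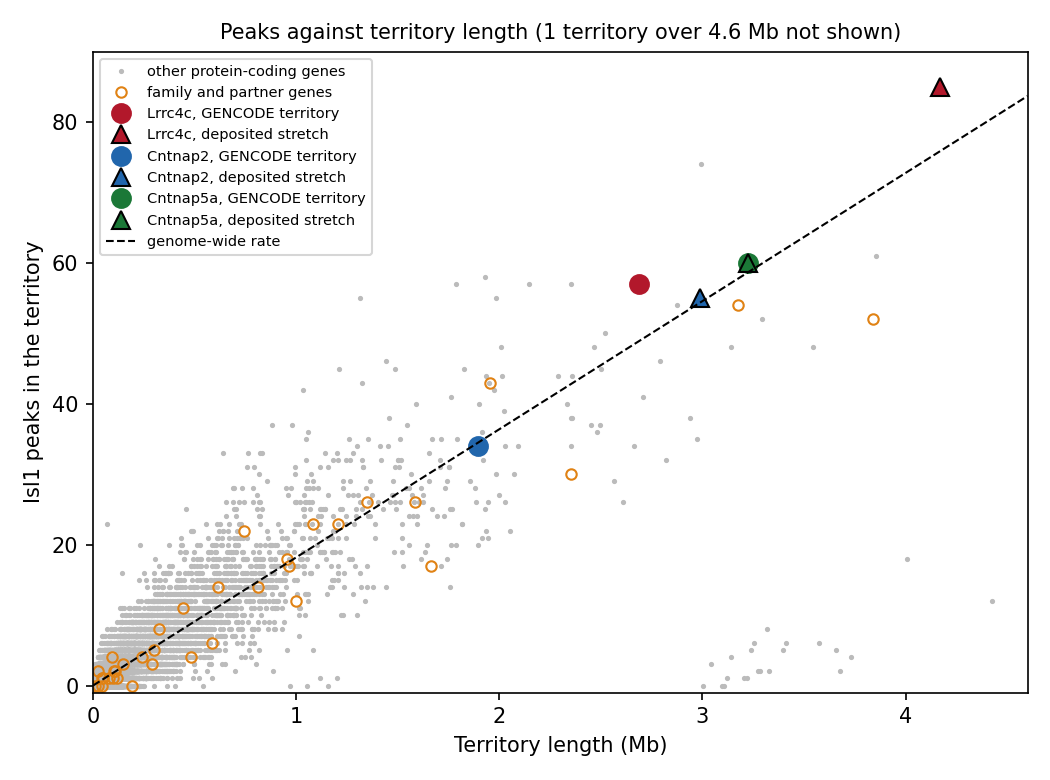
Number of Isl1 peaks in a territory against its length in Mb for 22210 protein-coding genes, with the family and partner genes as open circles, the GENCODE territories of the 3 genes as filled circles and their stretches from the deposited distances as triangles. The dashed line is the rate of the whole list; Cntnap5a and Cntnap2 lie on it, Lrrc4c lies above it with 57 peaks in 2.69 Mb or 85 in 4.17 Mb, and the points near 0 between 3 and 4 Mb include the territories with 92.2 to 93.7% unassembled bases.

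The counts of Lrrc4c and Cntnap2 depended on which other genes may own a peak. Of the 85 Lrrc4c peaks, 19 were closer to the GENCODE model Gm10801 and 9 to Gm10800, predicted genes in the desert downstream, which leaves 57. Of the 55 Cntnap2 peaks, 21 were closer to Rbpsuh-rs3, a model of 1.57 kb inside Cntnap2 that is related to the Notch effector gene Rbpj by name, which leaves 34. The list gave no peak to Gm10801 or Rbpsuh-rs3. All 60 peaks of Cntnap5a kept their gene. Of the neighbours at the outer ends, Dsel had 38 peaks in the list, Api5 19, Tsn 14 and Cul1 2.

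Genes with territories of nearly the same length are given beside the 3 as a description. The 3 were chosen by their number of peaks, so their standing among these genes is not independent of the choice. Around the 57 peaks of Lrrc4c, Cdh20 had 46, Gm10110 41, Lingo2 34, Grik2 29 and Dmd 26, all fewer. Around the 34 of Cntnap2, Celf2 had 40, Nudt12 36, Luzp2 28, Gm9008 26 and Gm17624 20. Around the 60 of Cntnap5a, its own relative Cntnap5b had 54 in 3.17 Mb. The other 4 in that set (Cnksr3 with 6, Sepp1 with 5, Scaf8 and Vmn1r238 with 1 each) had 92.2 to 93.7% unassembled bases, so that little of their length could hold a peak.

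The peaks inside Cntnap2 and Cntnap5a were near the number that gene length gave, and those inside Lrrc4c were above it. Protein-coding gene bodies had 16.2 peaks per Mb. Cntnap2, the 5th longest of 22225 gene bodies, had 36 peaks against 36.3 expected, a ratio of 0.993 (0.696 to 1.37). Cntnap5a had 17 against 14.5, a ratio of 1.17 with a wide interval (0.682 to 1.88). Lrrc4c had 36 against 21.2, a ratio of 1.69 (1.19 to 2.35), and this interval does not include 1. Among 198 genes of at least 500 kb the median ratio was 1.15 (quartiles 0.863 to 1.43), and Lrrc4c took place 24, Cntnap5a 96 and Cntnap2 123. Since 36 of the 85 peaks for which Lrrc4c was chosen lay in the gene body, this ratio is not independent of the choice.

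Over all of their peaks, the spacing of neighbouring peaks was alike in the 3 genes and close to that of the list. The median distance between midpoints was 32.7 kb in Lrrc4c (n = 84 pairs, quartiles 17.4 to 60.6 kb), 33.2 kb in Cntnap2 (n = 54, 13.8 to 85.5 kb) and 32.3 kb in Cntnap5a (n = 59, 14.8 to 74.6 kb). Over the list it was 34.0 kb, with quartiles of 13.6 and 71.5 kb. The coefficient of variation of these distances, which is 1 where points fall independently at an even rate, was 0.905, 1.00 and 1.08 in the same order and 1.30 over the list. The list pools all chromosomes and includes distances of up to 7095 kb, against 301 kb at most in the 3 genes. Its coefficient is therefore not directly comparable with theirs. Inside the gene bodies the median distances were less alike, with 24.3 kb in Lrrc4c, 45.95 kb in Cntnap2 and 38.6 kb in Cntnap5a.

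The share of close pairs was below that of the list in Lrrc4c, near it in Cntnap5a and above it in Cntnap2, on 3 to 7 pairs per gene. Under 5 kb apart were 3 pairs in Lrrc4c (3.57%), 7 in Cntnap2 (13.0%) and 5 in Cntnap5a (8.47%), against 9.94% in the list. The closest pair of all lay 617 bp apart, at -637 kb from the TSS of Cntnap2. The closest pair of Cntnap5a lay at its promoter, at -1.54 and -0.653 kb from the TSS. Around that TSS Cntnap5a also had its densest 100 kb, with 6 peaks from -65.8 to 26.8 kb.

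Long distances without a peak also occurred, 11 over 100 kb in Lrrc4c and 10 in each of the others. The longest in Lrrc4c was 191 kb (98483456 to 98673643) and contained both Gm10800 and Gm10801. The longest in Cntnap2 was 212 kb within the gene body and the longest in Cntnap5a 301 kb far upstream, neither with a gene in it. These intervals were not free of simple sequence, since they held 12, 7 and 16 runs of at least 50 bp. Whether peaks there had been removed with the blacklist was not tested.

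**Figure D4:**
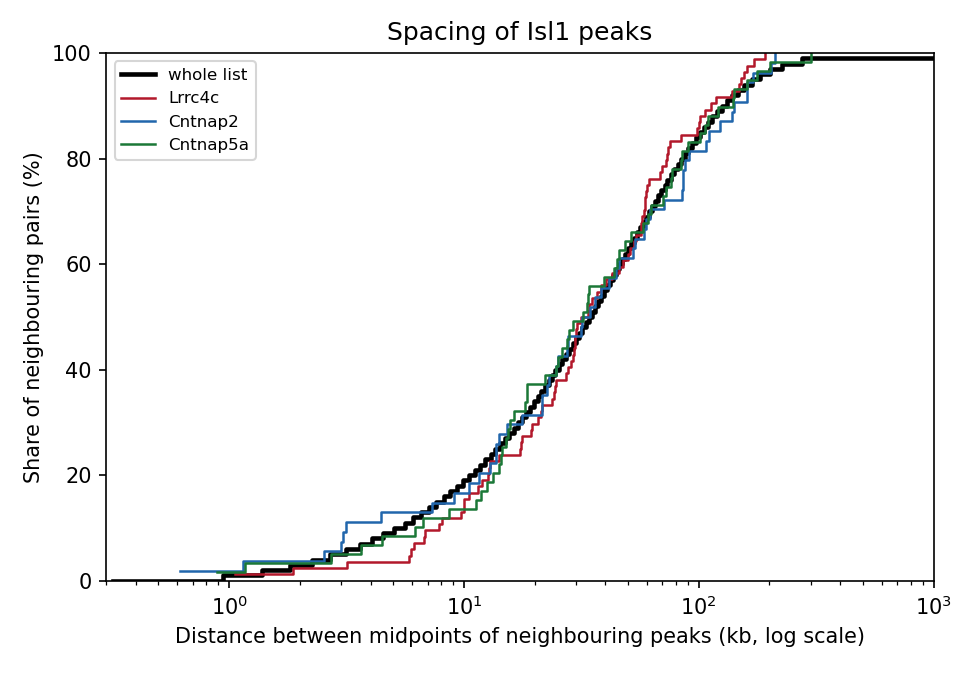
Share of neighbouring peak pairs (%) up to a given distance between midpoints (kb, log scale) for the 3 genes and for the whole list. The 4 curves cross the 50% line between 32.3 and 34.0 kb, and only the list reaches beyond 301 kb.

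Nearly all of the peaks had a run at the centre, as did the list. A window was said to hold a run where 25 or more bases without a break were all purines or all pyrimidines. Of the peaks of Lrrc4c 82 had one (96.5%, 95% Wilson interval 90.1 to 98.8%), of those of Cntnap2 52 (94.5%, 85.1 to 98.1%) and of those of Cntnap5a 58 (96.7%, 88.6 to 99.1%). The list had 94.1%, which lies within all 3 intervals. Windows placed 1 kb to either side had a run in 4.71%, 3.64% and 4.17% of cases for the 3 genes and in 3.96% over the list.

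The runs had a median length of 92 bp in Lrrc4c (39 to 436 bp), 104 bp in Cntnap2 (50 to 342 bp) and 103.5 bp in Cntnap5a (48 to 353 bp), against 111 bp over the list. The strand of the purines varied. Purines stood on the coding strand in 45 of the 82 runs of Lrrc4c (54.9%, 44.1 to 65.2%), in 33 of 52 of Cntnap2 (63.5%, 49.9 to 75.2%) and in 31 of 58 of Cntnap5a (53.4%, 40.8 to 65.7%). In the gene bodies alone this was 15 of 35, 22 of 33 and 9 of 16, and in the list 50.0% of the runs were purines on the plus strand. Location made little difference to their presence, with a run at 61 of 63 peaks upstream, 84 of 89 in the gene bodies and 47 of 48 downstream.

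Repeats of GA or CT of at least 4 units were counted in either phase (GAGAGAGA, AGAGAGAG, CTCTCTCT or TCTCTCTC). They were in 67.5% of the 200 windows of 201 bp (interval 60.7 to 73.6%) and in 56.1% of the windows of all peaks. By gene the share was 70.6% for Lrrc4c, 58.2% for Cntnap2 and 71.7% for Cntnap5a. At 1 kb to either side it was 3.0% for the 3 genes. Repeats of GGAA or TTCC of at least 3 units were in 13.5% of the members' windows and 12.9% of all windows, from 5.0% for Cntnap5a to 20.0% for Cntnap2.

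Core letters of homeodomain sites were rarer at the peaks than beside them. TAAT, searched on both strands, was in 45.0% of the 200 windows (38.3 to 51.9%) and in 84.3% of the windows 1 kb away. Over the list these shares were 35.6% and 73.6%. The longer CTAATG, which contains TAAT, was in 5 of the 200 windows (2.5%), in 9.0% of those 1 kb away, in 2.67% of all peak windows and in 8.08% of theirs. Such a match is only a description of the letters in a window, and in 192 of the 200 windows part of the sequence is taken up by the run. TAAT and CTAATG both mix purines and pyrimidines, so neither can lie within a run. The comparison with windows 1 kb away does not allow for this.

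The 8 peaks without a run were not all alike. In 4 of them a run of 78 to 142 bp lay in the peak but had fewer than 25 of its bases within 100 bp of the midpoint, which brings the members' peaks with a run anywhere to 196 of 200. The central 30 bases of 3 of the 8 peaks were repeated across the genome, with 176 exact copies for the Lrrc4c peak at -442 kb, 5376 for the Lrrc4c peak 840 kb downstream of the internal TSS and 3604 for the Cntnap2 peak printed above. The other 5 were found once each, the printed Cntnap5a window among them. How reads from repeated sequence were placed was not tested.

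Since runs marked nearly every peak, the runs themselves were counted in each territory. Lrrc4c had 198 runs of at least 50 bp (73.7 per Mb), Cntnap2 124 (65.5 per Mb) and Cntnap5a 221 (68.6 per Mb), against 66.6 per Mb over all territories. Under a peak lay 68 of those of Lrrc4c (34.3%, 28.1 to 41.2%), 40 of those of Cntnap2 (32.3%, 24.7 to 40.9%) and 64 of those of Cntnap5a (29.0%, 23.4 to 35.3%). Of all 176892 runs 30.4% did. Most runs of at least 50 bp in each of these territories, which include gene bodies, were therefore without a peak. This did not hold for runs of 150 bp and more in Cntnap2 and Cntnap5a. Of those 71.4% and 63.6% lay under a peak, against 42.3% in Lrrc4c.

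Longer runs were under a peak more often. Over all territories the share was 17.5% for runs of 50 to 74 bp, 29.3% for 75 to 99 bp, 39.4% for 100 bp to under 150 bp and 61.3% for 150 bp and more. Cntnap5a followed with 18.1, 23.9, 41.7 and 63.6%, and Cntnap2 with 16.1, 28.0, 56.5 and 71.4%. In Lrrc4c the shares were 28.6, 41.3, 35.7 and 42.3%, higher than the list at the short end and lower at the long end. The interval of its shortest class (20.6 to 38.2%) lay above the share of all territories, and the interval of its longest class (25.5 to 61.1%) ended just below it. These intervals do not allow for the choice of Lrrc4c by its number of peaks, nor for the several classes and genes compared. Nothing is supported with them. Over the longer stretch from the deposited distances, which holds all 85 peaks, the shares of Lrrc4c were 27.0, 39.7, 36.4 and 53.5%, and the interval of the longest class (38.9 to 67.5%) included the share of all territories.

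With the shares of all territories applied to its own run lengths, Lrrc4c would have 57.6 runs under a peak and had 68, 1.18 times as many. Cntnap2 had 40 against 35.8 (1.12 times) and Cntnap5a 64 against 64.3 (0.996 times). Over the longer stretches from the deposited distances the values were 1.16 for Lrrc4c with 98 of 276 runs and 1.21 for Cntnap2 with 68 of 188. Since the genes were chosen by their number of peaks, these values are not independent of the choice.

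**Figure D5:**
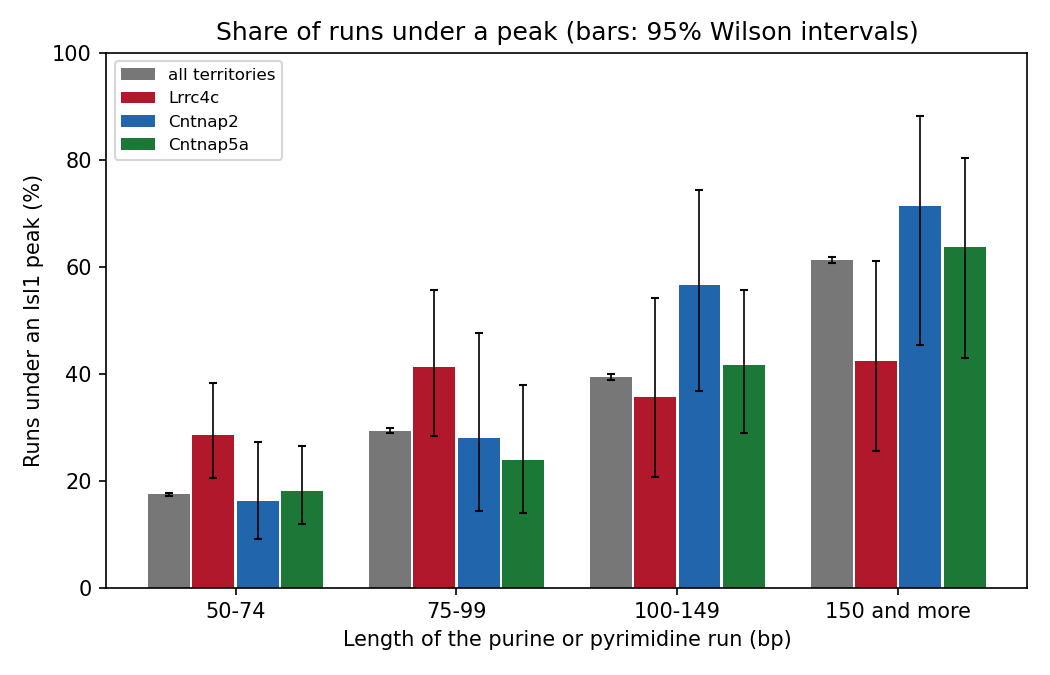
Share of purine or pyrimidine runs under an Isl1 peak (%) by run length for all territories and for the territories of the 3 genes, with 95% Wilson intervals as error bars. The share rises from 17.5 to 61.3% over all territories; Cntnap2 and Cntnap5a rise with it, and Lrrc4c has 28.6 to 42.3% in this territory, against 53.5% in the longest class over its stretch from the deposited distances.

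In width the peaks of Lrrc4c resembled the list, with a median of 465 bp (257 to 1009 bp) against 466 bp. Those of Cntnap2 had 428 bp (306 to 942 bp) and those of Cntnap5a 418.5 bp (294 to 745 bp). At least as wide as the median of the list were 42 of 85, 22 of 55 and 22 of 60 peaks. The median GC content of the windows was 45.8% for Lrrc4c, 44.8% for Cntnap2 and 45.8% for Cntnap5a, and 48.8% over the list.

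Relatives and partners of the 3 proteins had peaks in about the number that the length of their territories gave. By deposited symbol, 32 of 39 genes in 5 lists of neuronal adhesion genes, the 3 included, had a peak, whereas 45.6% of all 22210 protein-coding genes did. By position, 35 of the 39 had a peak in their territory and 54.8% of all genes did. The 36 others had 348 peaks by symbol, 0 to 38 each with a median of 4. Their territories were long, with a median of 386 kb against 46.7 kb over all genes, and held 450 peaks against 493 expected from length, a ratio of 0.913. After the 3 genes and Pcdh9, the genes next in order of deposited peaks had 52 (9030624G23Rik), 51 (Rbfox1), 50 (2410018L13Rik), 49 (Gm2516 and Grm7) and 48 peaks (5730507C01Rik).

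Of the netrin-G ligands, Lrrc4 had 3 peaks and Lrrc4b 1, and of their partners, Ntng1, which encodes the netrin-G1 that binds the product of Lrrc4c, had 4 and Ntng2 1. Their territories had 47.1 to 482 kb, against 2687 kb for Lrrc4c. The 4 genes held 12 peaks by position against 16.6 expected (ratio 0.722). The 5 other contactin-associated genes had 75 peaks in their territories against 80.0 (0.937). By deposited symbol Cntnap5b had 24, Cntnap5c 17, Cntnap4 4, Cntnap3 2 and Cntnap1, whose product acts at the paranodes of myelinated axons, had none.

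The contactins, cell surface proteins that pair with contactin-associated proteins, had 21 peaks (Cntn5), 18 (Cntn4), 15 (Cntn6), 6 (Cntn1), 4 (Cntn3) and 1 (Cntn2), with 102 in their territories against 112 expected (0.912). The partners of Cntnap2 beside the node had few. Cntn2 had 1, the potassium channel genes Kcna1 and Kcna2 had 2 and 3, the scaffold gene Dlg4 had 1, and the symbol Epb4.1l3 was not in the list, although 14 peaks lay in its territory. By position these 5 genes had 20 peaks against 16.2 (1.23).

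By deposited symbol, other synaptic adhesion genes ranged from no peak for Nlgn2, Nlgn3, Lrrtm2, Ptprs and Dscaml1 to 38 for Lrrtm1, with 37 for Nrxn3 and 26 for Ptprd. By position, 8 peaks lay in the territory of Dscaml1 and 1 in that of Ptprs. The 17 territories of this list held 242 peaks against 270 expected from length (0.896). Among genes with long territories there were both higher and lower ratios than in the 3 members. Rbfox1 had 57 peaks by position in 1.79 Mb (1.75 times the expected number), Grm7 57 in 2.15 Mb (1.46) and Pcdh9 74 in 2.99 Mb (1.36), while Ptprd had 52 in 3.84 Mb (0.744) and Cntn5 30 in 2.35 Mb (0.701).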

How the data were processed

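Cardiogenic regions of 60 to 80 pooled E8.25-E9 embryos gave 1 ChIP sample with a peak list. Per the labels and the study's methods, reads were aligned by the authors using bowtie2 (build mm9), Picard 1.136 took out duplicates, and MACS peaks outside the ENCODE blacklist were each given to the nearest TSS. The deposited values are positions, distances and gene names, with no counts, so read depth is unknown and weak and strong peaks weigh alike. The methods mention intersecting replicates, but whether this list is such an intersection could not be settled.

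After the 2 header lines, member peaks were taken by symbol. Territories, gene bodies and introns came from GENCODE vM1 on NCBIM37, and runs were read from its sequence. Python 3.11.15, numpy 2.4.6, pandas 2.3.3 and scipy 1.17.1 were used, and the run finder and territory assignment were tested on simulated data. Expected numbers are length times the rate of the list. Intervals are 95% exact Poisson or Wilson. No test was made, since the members were chosen by their counts. The members and lists were chosen with earlier results of these data known. Named were the members, the family lists, the 10 genes with the most peaks, the 5 genes nearest in territory length to each member and the border genes. Alternatives covered peak width, merging, annotation, rate, run length and window. Some genes of these lists and some sequence windows are not reported here.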

Additional observations from a re-analysis of the deposited data

How the results depend on the processing

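Of 66 values recomputed under another setting, 42 stayed near the reported value and 24 moved away from it, judged by the interval of a ratio, share or median and by a 1.5-fold limit for a count. Those that moved are given in the order Lrrc4c, Cntnap2 and Cntnap5a. Peaks per gene were 42, 22 and 22 with peaks at least as wide as the median, 36, 36 and 17 in the gene body, 46, 28 and 27 within 500 kb of the TSS, and 3, 3 and 2 among peaks without a run. By the closest GENCODE TSS Cntnap2 had 34. The ratio to the number expected from territory length was 1.57 for Lrrc4c and 1.45 for Cntnap5a with TSSs of all annotated genes, and 0.747 for Cntnap5a with wide peaks. Over all settings it ranged from 1.12 to 1.57, from 0.751 to 1.19 and from 0.747 to 1.45. The median spacing of Lrrc4c was 24.3 kb in the gene body. The share of its peaks with a run was 98.8% with runs of at least 15 bases and also over the whole peak. Of runs of at least 30 bp, 22.5%, 22.1% and 18.2% lay under a peak (all territories 18.2%), and of runs of at least 100 bp, 62.2% for Cntnap2 and 48.6% for Cntnap5a (all territories 49.3%). The cause of these shifts was not tested. No paired analysis was possible because a single list was used and no result came from a test, and no replicate could be left out.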
